A study of Homo sapiens with 8 samples.

Results

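Inflammatory cytokines and chemokines are small secreted proteins with which stressed or infected cells call in leukocytes and alert their neighbours. The 10 genes IL6, CXCL8, CXCL1, CXCL2, CXCL3, CCL2, IL1A, IL1B, LIF and IL11 were taken as members by gene symbol, and a row was read for 9 of them among 18555 rows of the count table. CXCL1 was not analysed here. The members were proposed as secreted mediators driven by NF-kB and were selected on their counts in siXBP1 against siNC libraries, since results of that comparison were already known. Their changes in it are therefore described, and no test of the members as a list is made. All 9 passed the filter on low counts, as did 14337 genes in all.

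The siXBP1 group holds 3 RNA-seq libraries from cells transfected with an XBP1-specific siRNA. The siNC group holds 3 libraries from cells given Allstar control siRNA. Both groups carried the label HepG2, a line from a human liver tumour, and both were exposed to 30 nM thapsigargin for 3 hours, 2 days after transfection. Thapsigargin empties the calcium store of the endoplasmic reticulum (ER) and sets off the unfolded protein response, so the groups differ in XBP1 under ER stress and no unstressed RNA-seq group was analysed here. The 2 XBP1s ChIP-seq samples were not analysed here.

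Most of these genes are nearly silent in resting cells and are switched on within hours. NF-kB, a dimer of RELA with NFKB1 or related proteins, is set free from its inhibitors, enters the nucleus and acts at their promoters together with AP-1 and C/EBP factors. ER stress is known to feed into this route through the sensors IRE1 and PERK. XBP1s is the transcription factor made when IRE1 splices the XBP1 mRNA.

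Library totals lay between 38209972 and 38890070 counts, and every member had at least 66 counts in each library, well above the floor of 3 counts. Levels are given in CPM, counts scaled by the total of the library, which are not corrected for gene length and serve to compare libraries for one gene. XBP1 (chromosome 22, 28794560 to 28800569, GRCh38) had 290, 299 and 276 CPM in the siXBP1 libraries, against 552, 502 and 500 CPM in the siNC libraries. Its log2 fold change was -0.84 (SE 0.08), a fall that passed edgeR's test with an adjusted p of 0.0331. The call ended with upper-quartile scaling (adjusted p = 0.0546) and when a fit left out siNC replicate 2 (adjusted p = 0.175), siNC replicate 3 (0.213), siXBP1 replicate 1 (0.475) or siXBP1 replicate 2 (0.284). It held in the other alternative fits, among them limma-voom (adjusted p = 0.0348) and DESeq2 (adjusted p = 6.7e-13). Over all alternatives the log2 fold change of XBP1 ran from -0.88 to -0.76. The libraries also differed along a first principal component with 59.1% of the variance over 11528 genes, on which siNC replicate 1 and siXBP1 replicate 3 lay at opposite ends. The liver label was not borne out by the markers that could be read. Of 18 markers of hepatocytes and HepG2, 10 had a row, and the others were not analysed here. Of those with a row, 1 averaged at least 1 CPM. AFP did not exceed 0.155 CPM in any library, SERPINA1 0.416 CPM and TF 0.104 CPM, so the cells are called here by their label only.

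The promoters of the members show which regulatory sequences lie next to their start sites. RefSeq promoters of GRCh38.p14 were found for 7 of the 9 genes, IL6, CXCL8, CXCL2, CXCL3, IL1A, IL1B and IL11, and the 250 bases before each start site were searched on both strands. CCL2 and LIF were not searched. The sequences below are those of the 4 genes that held a kappaB match, and of IL11 as one of the 3 genes that held none. IL1A and IL1B also held none, with log2 fold changes of 0.31 (SE 0.13) and 0.44 (SE 0.20). CXCL3, which held a match, had 0.22 (SE 0.32) and overlapped between groups. Whether match and level go together was not tested. The sequences are written 5′ to 3′ on the strand of the gene. Capitals mark the kappaB match, and the last base of each lies next to the start site.
IL6 (chr7:22726950-22727199, plus strand): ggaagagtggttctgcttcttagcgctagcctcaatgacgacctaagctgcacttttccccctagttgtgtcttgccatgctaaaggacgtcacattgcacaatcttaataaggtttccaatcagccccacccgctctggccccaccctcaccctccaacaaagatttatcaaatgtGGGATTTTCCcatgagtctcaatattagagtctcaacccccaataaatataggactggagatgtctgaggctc
CXCL8 (chr4:73740319-73740568, plus strand): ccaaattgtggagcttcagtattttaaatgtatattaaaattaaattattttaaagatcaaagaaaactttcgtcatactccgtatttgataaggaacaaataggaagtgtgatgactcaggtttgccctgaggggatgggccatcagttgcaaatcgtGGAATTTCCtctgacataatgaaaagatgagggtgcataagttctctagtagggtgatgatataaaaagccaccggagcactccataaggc
CXCL2 (chr4:74099196-74099445, minus strand): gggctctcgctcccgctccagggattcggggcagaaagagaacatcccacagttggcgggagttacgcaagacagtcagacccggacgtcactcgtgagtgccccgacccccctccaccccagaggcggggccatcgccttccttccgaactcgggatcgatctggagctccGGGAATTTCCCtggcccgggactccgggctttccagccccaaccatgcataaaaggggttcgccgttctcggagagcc
CXCL3 (chr4:74038690-74038939, minus strand): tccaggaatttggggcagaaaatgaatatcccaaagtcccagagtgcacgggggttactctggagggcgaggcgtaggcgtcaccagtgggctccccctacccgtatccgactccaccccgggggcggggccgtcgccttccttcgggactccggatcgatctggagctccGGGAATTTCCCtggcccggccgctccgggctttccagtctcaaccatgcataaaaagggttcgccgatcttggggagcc
IL11 (chr19:55370464-55370713, minus strand): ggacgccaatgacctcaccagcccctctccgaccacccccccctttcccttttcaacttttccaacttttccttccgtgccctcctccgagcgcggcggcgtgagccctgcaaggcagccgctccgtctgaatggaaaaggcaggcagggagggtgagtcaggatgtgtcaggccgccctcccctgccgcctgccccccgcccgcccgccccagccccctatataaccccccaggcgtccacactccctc

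The kappaB core GGANNTTCC, in which N is any base, was found in 4 of the 7 genes, against 3.84% of the 35116 promoters of the table. It began 72 bases before the start site in IL6, 91 in CXCL8, 77 in CXCL2 and 78 in CXCL3. The longer NF-kB consensus, which overlaps the core, was found in IL6, CXCL2 and CXCL3, against 9.96% of promoters. The copies in CXCL2 and CXCL3 had the same letters, and the 250 bases of these sister genes were identical at 73.4% of 267 aligned columns. The AP-1 motif TGANTCA was present in CXCL8, IL1A and IL11 (6.57% of promoters), and the C/EBP motif TTGCNNAA in IL6, CXCL2 and IL1B (9.05%). For the factors named in the study's title, CCACGT, the core of the XBP1s motif, was found in IL1A alone (8.37% of promoters). The TCF/LEF core CTTTGAT was found in CXCL8 alone (2.26%). No match to the longer XBP1s motif TGACGTGG was found in these 7 genes (0.612% of promoters). A match is a stretch of letters and not a measured binding site, and the motifs were chosen with the sequences in view. The members were proposed as driven by NF-kB, so nothing is read from the kappaB counts beside these shares. The shares are also over promoter entries rather than genes, and IL1A had 2 start sites.

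Across the 9 genes, 5 had higher levels in every siXBP1 library than in any siNC library, namely IL6, CXCL8, CXCL2, CCL2 and IL1A. Among all 14337 genes tested, 5.01% were higher in this way. No member was lower without overlap (3.74% of genes tested), and 4 overlapped between groups. Of the fitted log2 fold changes, 7 were above 0 and 2 below, with a median of 0.37, against a median of 0.0096 over all genes tested, of which 52.8% had estimates above 0. In the planned edgeR fit 0 of 9 members passed an adjusted p of 0.05, where 1 gene of 14337 (0.00697%), XBP1, passed. At an unadjusted p under 0.05 this fit gave 5 members and 517 genes, and limma-voom also called 0 members. DESeq2 called IL6 and CXCL8 as higher, among 16 genes in all (0.115% of those it tested, 0.0505% higher and 0.0649% lower). edgeR without the libraries at both ends of the first component called IL6, CXCL8 and CXCL2 as higher, where 4.87% of genes were called, 1.45% higher and 3.42% lower. These shares come from the contrast by which the genes were chosen, and nothing is read from them.

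**Figure D1:**
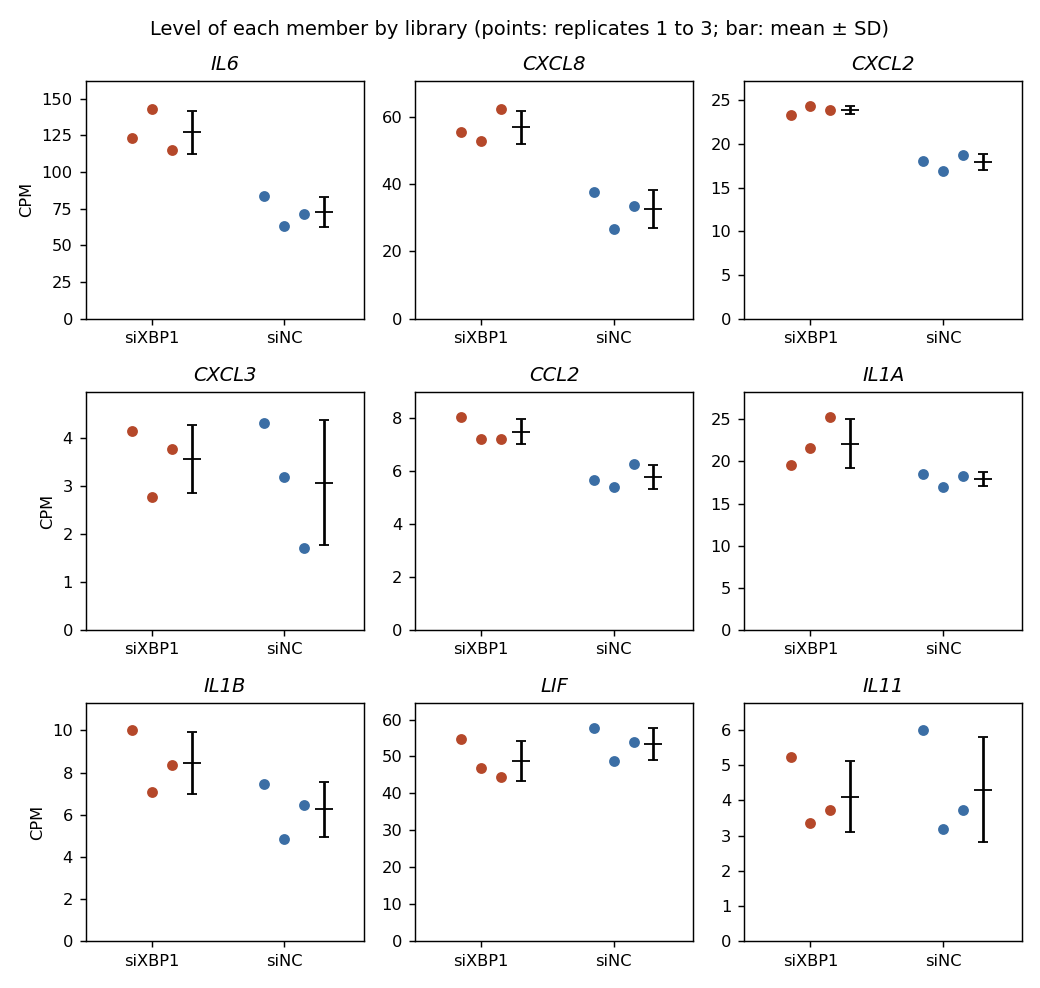
Level of each of the 9 members in CPM (vertical axes, each starting at 0 with its own scale) in the 3 siXBP1 and 3 siNC libraries. Points are replicates 1 to 3 and bars the mean ± SD; the siXBP1 points of IL6, CXCL8, CXCL2, CCL2 and IL1A lie above all siNC points of the same gene.

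IL6, LIF and IL11 are ligands that signal through the shared receptor chain gp130, each with a receptor of its own. IL6 (gene ID 3569, chromosome 7, 22727200 to 22731998) drives the acute phase response of the liver and acts widely on immune cells. It had 123, 143 and 115 CPM in the siXBP1 libraries, against 83.3, 63.1 and 71.2 CPM in the siNC libraries. Every siXBP1 library was above every siNC library, by a margin larger than the spread within either group. The means were 127 ± 14.6 CPM in siXBP1 and 72.5 ± 10.2 CPM in siNC (SD, n = 3 each), and the log2 fold change was 0.81 (SE 0.13; edgeR adjusted p = 0.594). With 1 library left out it lay between 0.70 and 0.92. In bulk RNA, more cells that make a transcript and more of it per cell cannot be told apart. The antisense gene IL6-AS1 overlaps the start of IL6 and had 115, 81 and 85 counts in siXBP1, against 62, 62 and 59 in siNC. Because the strand setting of the counting is not given in the sources used here, reads from the overlap cannot be assigned, but IL6 itself had at least 2451 counts per library.

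LIF (gene ID 3976, chromosome 22, 30240453 to 30246759), which acts through LIFR and gp130 and is known for keeping mouse stem cells undifferentiated, did not share the higher level of IL6. It had 54.8, 47.0 and 44.5 CPM in siXBP1, against 57.6, 48.8 and 53.9 CPM in siNC. The groups overlapped, with means of 48.8 ± 5.34 CPM in siXBP1 and 53.4 ± 4.40 CPM in siNC (SD, n = 3 each) and a log2 fold change of -0.13 (SE 0.12). It was -0.22 without siXBP1 replicate 1, -0.20 without siNC replicate 2, -0.077 without siNC replicate 1 and -0.082 without siXBP1 replicate 3. LIF-AS1 and LIF-AS2 overlap its ends in the annotation. IL11 (gene ID 3589, chromosome 19, 55364382 to 55370463), a ligand of IL11RA tied to fibrosis and epithelial stress, had 5.25, 3.35 and 3.72 CPM in siXBP1, against 5.99, 3.19 and 3.74 CPM in siNC. Replicate 1 stood highest in both groups, and the other libraries of both groups lay close together. Its log2 fold change was -0.07 (SE 0.27), and it was 0.24 without siNC replicate 1 and -0.28 without siXBP1 replicate 1, so its sign turned with 1 library.

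The gp130 ligands can also be set against each other as a ratio inside each library, which does not depend on how libraries are scaled. The ratio of IL6 to LIF counts was 2.25, 3.05 and 2.57 in siXBP1, against 1.45, 1.29 and 1.32 in siNC. The siXBP1 mean of 2.62 ± 0.401 was 1.94 times the siNC mean of 1.35 ± 0.0821 (SD, n = 3 each), with no overlap. The ratio of CXCL8 to LIF did not overlap either, at 1.18 ± 0.201 in siXBP1 and 0.609 ± 0.0570 in siNC. The ratio of IL6 to CXCL8 was 2.25 ± 0.436 in siXBP1 and 2.23 ± 0.128 in siNC, with overlap.

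**Figure D2:**
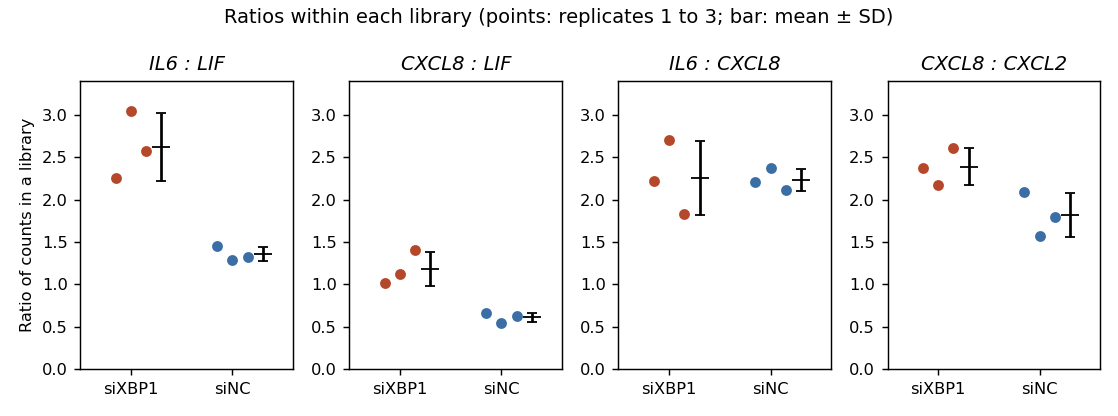
Ratios of counts of 2 members inside each library (vertical axis, no unit) for IL6 to LIF, CXCL8 to LIF, IL6 to CXCL8 and CXCL8 to CXCL2, with siXBP1 left of siNC; points are replicates 1 to 3 and bars the mean ± SD. The ratio of IL6 to LIF averaged 2.62 in siXBP1 and 1.35 in siNC, whereas that of IL6 to CXCL8 averaged 2.25 in siXBP1 and 2.23 in siNC.

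CXCL8, CXCL2 and CXCL3 are CXC chemokines that attract neutrophils through CXCR2, and CXCL8 also uses CXCR1. Their genes lie on chromosome 4, with 292.9 kb between CXCL8 and CXCL3 and 58.4 kb between CXCL3 and CXCL2. CXCL8 (gene ID 3576, 73740569 to 73743716), which encodes interleukin-8, had 55.4, 52.9 and 62.5 CPM in siXBP1, against 37.8, 26.6 and 33.7 CPM in siNC. All siXBP1 libraries were above all siNC libraries. The means were 56.9 ± 4.96 CPM in siXBP1 and 32.7 ± 5.64 CPM in siNC (SD, n = 3 each), and the log2 fold change was 0.80 (SE 0.14; edgeR adjusted p = 0.594). With 1 library left out it lay between 0.67 and 0.92.

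CXCL2 (gene ID 2920, 74097040 to 74099195) had the tightest replicates of the 9 members, with 23.4, 24.3 and 23.9 CPM in siXBP1, against 18.1, 16.9 and 18.7 CPM in siNC. The groups did not overlap, and the SD over siXBP1 libraries was 0.489 CPM. Its log2 fold change was 0.42 (SE 0.11; edgeR adjusted p = 1.00), about the size of that of CCL2 and smaller than that of CXCL8. The CXCL8 to CXCL2 ratio was 2.39 ± 0.219 in siXBP1 and 1.82 ± 0.256 in siNC (SD, n = 3 each), without overlap.

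CXCL3 (gene ID 2921, 74036589 to 74038689) had the same kappaB letters as CXCL2. It had 4.16, 2.78 and 3.77 CPM in siXBP1, against 4.32, 3.19 and 1.71 CPM in siNC. A difference between CXCL3 and CXCL2 was not tested. The groups overlapped widely, and siNC replicate 3 stood lowest of all 6 libraries. The log2 fold change was 0.22 (SE 0.32), and it turned to -0.08 when siNC replicate 3 was left out. CXCL2 and CXCL3 are closely related genes, and how any reads that match both were counted is not given in the sources used here, so their levels are uncertain. Between CXCL8 and CXCL2 the table holds 2 further genes, CXCL5, which encodes another neutrophil chemokine, and the pseudogene PPBPP2, with 2 and 10 counts over all 6 libraries.

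CCL2 (gene ID 6347, chromosome 17, 34255285 to 34257203), the chemokine that draws monocytes through CCR2, had 8.03, 7.22 and 7.20 CPM in siXBP1, against 5.66, 5.40 and 6.28 CPM in siNC. The groups did not overlap. The means were 7.48 ± 0.475 CPM in siXBP1 and 5.78 ± 0.453 CPM in siNC (SD, n = 3 each), and the log2 fold change was 0.37 (SE 0.15; edgeR adjusted p = 1.00), between 0.32 and 0.43 with 1 library left out.

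IL1A and IL1B encode the interleukin-1 ligands, which act through IL1R1 with IL1RAP and can themselves induce the other members. They lie 45.3 kb apart on chromosome 2, IL1A at 112773925 to 112784493 and IL1B at 112829751 to 112836779. IL1A (gene ID 3552), an alarm signal that dying cells release, had 19.5, 21.6 and 25.3 CPM in siXBP1, against 18.5, 16.9 and 18.3 CPM in siNC. The groups did not overlap, but the lowest siXBP1 library lay close to the highest siNC library. Its log2 fold change was 0.31 (SE 0.13), and 0.19 without siXBP1 replicate 3. IL1B (gene ID 3553), whose product must be cut by caspase-1 to become active, had 10.0, 7.06 and 8.35 CPM in siXBP1, against 7.46, 4.86 and 6.47 CPM in siNC. The groups overlapped, since siXBP1 replicate 2 was below siNC replicate 1. The log2 fold change was 0.44 (SE 0.20), and 0.28 without siNC replicate 2.

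**Figure D3:**
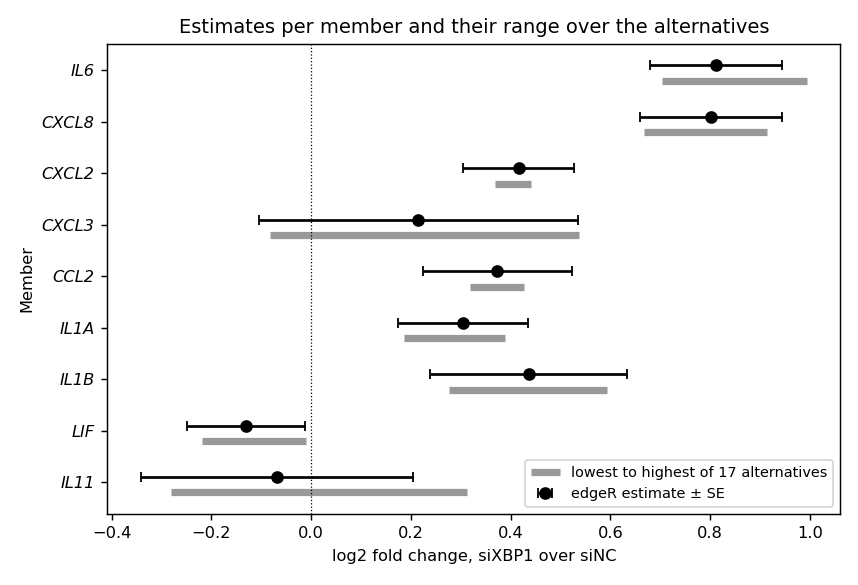
Log2 fold change of each member, siXBP1 over siNC (horizontal axis), as the edgeR estimate with its standard error (black) and the lowest and highest value over 17 alternative fits (grey). The grey ranges of CXCL3 and IL11 cross 0, and those of IL6 (0.70 to 0.99) and CXCL8 (0.67 to 0.92) lie highest.

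The members were also compared between libraries of 1 group. In siNC, replicate 1 was the highest of the 3 libraries for 7 of 9 members, against 41.3% of all genes tested, and replicate 2 was the lowest for 8 of 9, against 35.3%. In siXBP1, replicate 1 was the highest for 5 of 9 members and replicates 2 and 3 for 2 each, with no share over all genes computed. The summed level of the 9 members was 304, 309 and 294 CPM in siXBP1, against 239, 189 and 214 CPM in siNC. Of the siNC libraries, replicate 1 is the one at the end of the first component, and its part in the members' values was not tested. The fits that left it out gave log2 fold changes of 0.92 for IL6 and 0.92 for CXCL8. When each library's position on that component entered the model, edgeR called IL6 (log2 fold change 0.87, SE 0.07), CXCL8 (0.83, SE 0.10) and CXCL2 (0.42, SE 0.10, adjusted p = 0.0228) as higher. In that fit 1.2% of genes tested were called, 0.711% higher and 0.488% lower, and the position was computed from these same libraries, so its p-values may be too small. The replicate spread of the members, as edgeR's biological coefficient of variation, ran from 11.0% for CXCL2 to 26.8% for CXCL3, with a median of 13.9% over all genes tested.

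**Figure D4:**
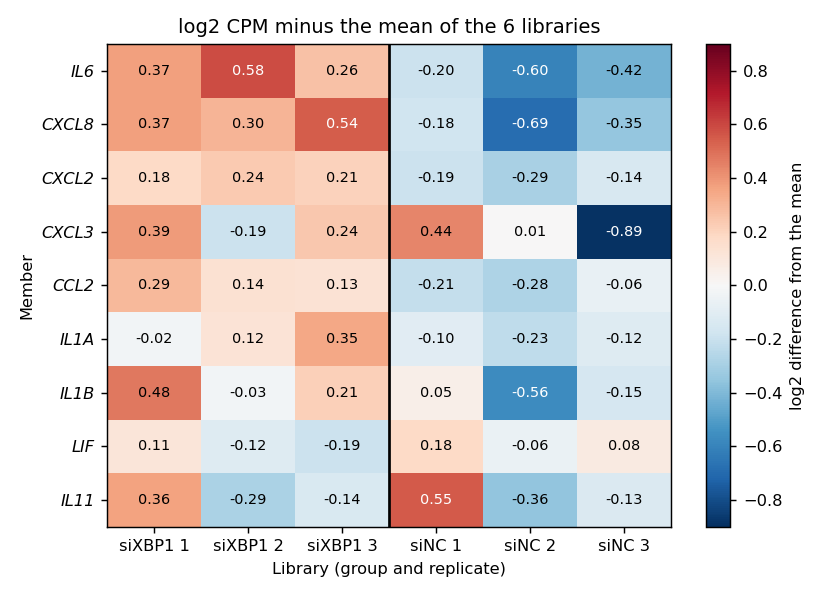
Log2 CPM of each member (rows) in each library (columns, siXBP1 left of the black line and siNC right of it) minus the mean of that member over the 6 libraries. IL6 runs from 0.26 to 0.58 in siXBP1 and from -0.60 to -0.20 in siNC, while CXCL3 and IL11 have high and low libraries in both groups.

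The genes whose levels followed those of IL6 and CXCL8 most closely were sought among 11528 genes averaging 100 counts or more, by Pearson's r of log2 CPM over the 6 libraries. For IL6 the 5 closest were FGFBP1, EDN1, ATF3, CRYAB and ARHGEF3, with r from 0.996 to 0.985. For CXCL8 they were TNFAIP3, PLCG2, LINC00941, TNFRSF21 and PDGFA, with r from 0.993 to 0.982. The r between IL6 and CXCL8 was 0.925, and CXCL2 reached 0.958 with IL6 and 0.956 with CXCL8, whereas LIF had -0.33 and -0.35. Such values include the difference between groups. Taken on deviations from the group means, IL6 and CXCL8 had an r of 0.429, and the closest genes were JAGN1, HRAS, SIVA1, RPL23AP7 and OXLD1 for IL6 and LINC00941, LZTS3, SAP30, TNFAIP6 and STAG3L1 for CXCL8. LINC00941, a long non-coding RNA, was close to CXCL8 in both ways. The points share the 6 libraries, and with so few of them high values arise easily among so many genes.

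Other ligands of the same families were measured beside the members. Of 13 other CXC ligands, 3 were tested. CXCL11 (log2 fold change 0.53, SE 0.18) and CXCL10 (0.27, SE 0.15) encode ligands of CXCR3 that interferon induces, and CXCL16 (-0.03, SE 0.17) encodes a membrane-bound chemokine. CXCL11 alone of these had groups that did not overlap, with 11.0 ± 1.86 CPM in siXBP1 and 7.63 ± 1.28 CPM in siNC (SD, n = 3 each). Of 15 CC, XC and CX3C ligands, 6 were tested, and CCL5, which attracts T cells, had 438 ± 36.8 CPM in siXBP1 and 353 ± 27.7 CPM in siNC (log2 fold change 0.31, SE 0.10). CCL20 (0.85, SE 0.32) and CCL22 (0.77, SE 0.36) had larger estimates at averages of 1.23 and 1.39 CPM. Of 18 other inducible mediators, 10 were tested and 9 had higher estimates, beside 52.8% of all genes tested. Among these CSF1, which supports macrophages, had 52.4 ± 6.69 CPM in siXBP1 and 40.1 ± 2.18 CPM in siNC (0.39, SE 0.12), and IL12A averaged 0.674 CPM (1.01, SE 0.39). CSF2 and CSF3, textbook NF-kB targets, did not exceed 0.052 and 0.104 CPM in any library. Of the other gp130 ligands, 4 of 8 were tested, with 2 higher and 2 lower estimates, CLCF1 (-0.11, SE 0.12) and EBI3 (0.33, SE 0.24) among them. Of the other interleukin-1 family genes, 5 of 10 were tested. IL18 (-0.04, SE 0.15) overlapped between groups, and IL36RN, which encodes a receptor antagonist, did not (0.41, SE 0.28). Among all genes tested, 5.01% were higher without overlap. The planned edgeR fit and DESeq2 called 0 genes of these 5 lists, and edgeR with the first component in the model called CCL5 and CSF1 as higher. With the component, 0.711% of all genes tested were called higher.

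The receptors of the members were measured in the same libraries. Of 12 receptor genes, 6 were tested and 0 were called by edgeR, with 5 higher estimates and 1 lower. Over all genes tested, 52.8% of estimates were higher. IL6ST, which encodes gp130, had 171 ± 66.0 CPM in siXBP1 and 149 ± 46.7 CPM in siNC, and LIFR had 116 ± 28.6 CPM in siXBP1 and 99.3 ± 27.0 CPM in siNC (SD, n = 3 each). Both overlapped between groups. IL6R (0.07, SE 0.14), IL1R1 (0.16, SE 0.17) and IL1RAP (0.21, SE 0.14) overlapped as well. IL11RA was lower without overlap, at 1.24 ± 0.262 CPM in siXBP1 and 2.02 ± 0.490 CPM in siNC (log2 fold change -0.70, SE 0.31). The neutrophil chemokine receptors CXCR1 and CXCR2 did not exceed 0.052 and 0.209 CPM in any library. Of 15 genes for proteins that act downstream of the receptors, 14 were tested, with 8 higher and 6 lower estimates (median 0.02). IRAK2, a kinase of the interleukin-1 receptor (0.35, SE 0.09), and STAT3, the factor activated through gp130 (0.16, SE 0.08), were higher without overlap. So was TRAF6 (0.18, SE 0.12). Among all genes tested, 5.01% were higher and 3.74% lower without overlap. PIAS3, an inhibitor of STAT3, was lower without overlap (-0.10, SE 0.10), and JAK1 (0.10, SE 0.10) overlapped. The planned edgeR fit called 0 of the 14. The fit with the first component called IRAK2 as higher, where 0.711% of all genes tested were called higher.

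Known regulators of the members were read in the same way. Over all genes tested, 52.8% had higher estimates, with a median log2 fold change of 0.0096. All 17 NF-kB subunits, kinases and inhibitors were tested, and 13 had higher estimates (median log2 fold change 0.14). TNFAIP3 (0.49, SE 0.09) and NFKBIZ (0.49, SE 0.12) led them, with RELA at 0.04 (SE 0.10). TNFAIP3 encodes the feedback inhibitor A20, and NFKBIZ a nuclear partner of NF-kB needed for IL6 induction in mouse cells. Among 13 AP-1 and C/EBP factors, 10 had higher estimates (median 0.10), led by ATF3 (0.42, SE 0.11) and FOSL1 (0.30, SE 0.15). Only 2 of the 13 were higher without overlap. The most abundant, JUNB (0.02, SE 0.18) and FOSL2 (0.16, SE 0.11), overlapped between groups, as did FOSL1. The lowest of the 3 lower estimates was that of CEBPB (-0.16, SE 0.17). Among 13 regulators of cytokine mRNA stability, which bind elements in these short-lived mRNAs, 9 had higher estimates (median 0.12). ZFP36L2 (0.27, SE 0.10) and ZFP36L1 (0.17, SE 0.09), which promote decay, were higher without overlap, and HNRNPD (-0.06, SE 0.08) overlapped. The share of all genes tested that were higher without overlap was 5.01%. Of 11 genes that process or release interleukin-1, 8 were tested and 3 had higher estimates (median -0.08), with NLRC4 (-0.56, SE 0.42) at 0.858 CPM. The planned edgeR fit called 0 genes in each of these lists. With the first component in the model, edgeR called TNIP1, RELB, NFKBIZ and TNFAIP3 among the NF-kB genes as higher. It also called JUN, ATF3 and FOSL1 among the AP-1 and C/EBP factors, and ZFP36L2 among the stability regulators, as higher. Of these, TNIP1, RELB, JUN and FOSL1 overlapped between groups. That fit called 0.711% of all genes tested as higher, and its p-values may be too small because the component came from these same libraries. DESeq2 called TNFAIP3 (adjusted p = 0.00793), where 0.115% of the genes it tested were called. For TNFAIP3 edgeR's adjusted p was 0.594 as planned and 5.91e-05 with the component.

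**Figure D5:**
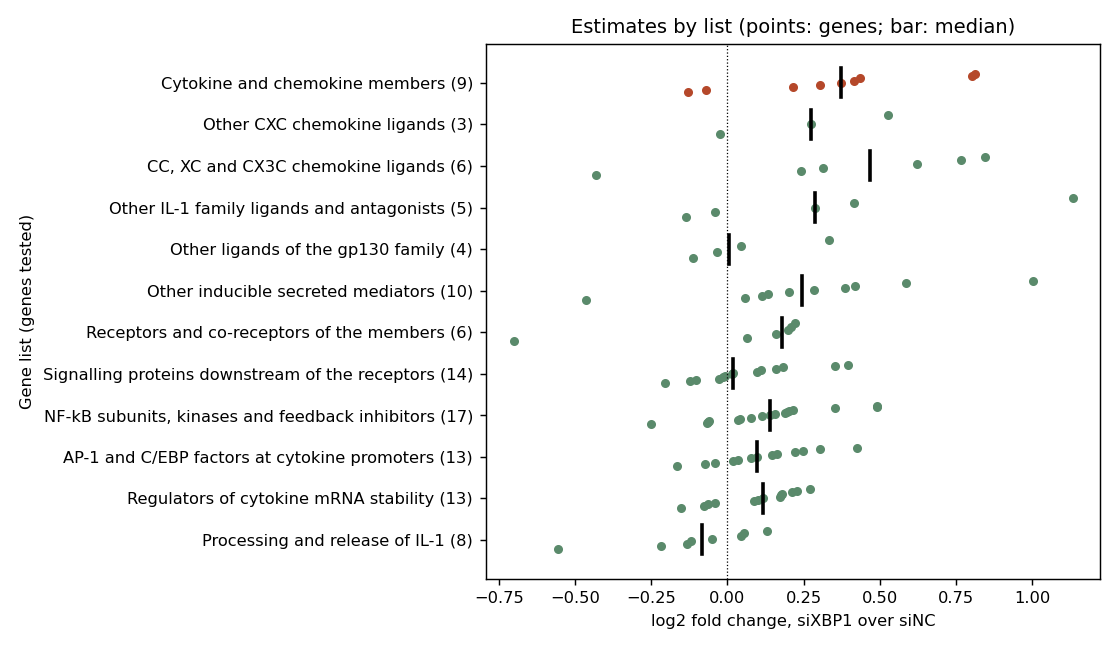
Log2 fold change, siXBP1 over siNC (horizontal axis), of the tested genes of the members and of 11 further lists (rows, number tested in brackets); points are genes and black bars list medians. The CC, XC and CX3C ligands have a median of 0.47, the members 0.37, the other interleukin-1 family genes 0.29, the NF-kB list 0.14 and the interleukin-1 processing list -0.08. Of the 6 CC, XC and CX3C ligands tested, only 3 averaged at least 1 CPM.

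Leukocytes and other cells that make these cytokines were checked by their markers. Of 12 leukocyte markers 6 had a row, and their summed level was 41.1 to 44.9 CPM in siXBP1, against 38.7 to 46.1 CPM in siNC. CD68, which many cell lines express, made up nearly all of it, with 41.5 ± 1.73 CPM in siXBP1 and 40.5 ± 3.29 CPM in siNC (SD, n = 3 each). PTPRC, the pan-leukocyte gene CD45, had 0.503 ± 0.0634 CPM in siXBP1 and 0.482 ± 0.133 CPM in siNC. CD14, a monocyte marker, was lower without overlap at an average of 0.263 CPM (log2 fold change -1.22, SE 0.80). Of 8 endothelial markers 7 had a row, with a summed level of 9.54 to 11.5 CPM in siXBP1, against 9.78 to 11.1 CPM in siNC. CDH5, the most abundant of them at an average of 7.07 CPM, overlapped between groups (log2 fold change -0.25, SE 0.18). PECAM1 (0.77, SE 0.40) and TEK (1.20, SE 0.45) were higher without overlap at averages of 0.639 and 0.795 CPM. Among all genes tested, 5.01% were higher and 3.74% lower without overlap. TIE1 had 5 counts in siNC replicate 2 and 0 in the other 5 libraries. Of 10 fibroblast markers 9 had a row, and the sum was 353 to 359 CPM in siXBP1, against 328 to 347 CPM in siNC. LUM had 143 ± 16.6 CPM in siXBP1 and 129 ± 7.37 CPM in siNC, and COL3A1 had 134 ± 10.9 CPM in siXBP1 and 124 ± 13.2 CPM in siNC (SD, n = 3 each). Both overlapped between groups, as did COL1A1 (log2 fold change -0.19, SE 0.15) and PDGFRB (-0.12, SE 0.16), whose estimates were lower. COL1A2 and THY1 did not exceed 0.052 and 0.130 CPM. The part of these markers in the members' values was not tested.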

How the data were processed

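RNA-seq was made with a stranded TruSeq kit, per the labels' protocols. The deposited table holds raw read counts per gene, which the authors made with STAR 2.5.2a and featureCounts 1.5.0 on hg38, per the submitters' processing notes. No strand setting or annotation is named in the labels. Among counts from 1 to 40, 75.8% to 80.5% were even, as when both mates of a pair are counted, so halved counts were tried. Names came from RefSeq GRCh38.p14 for 18526 of 18555 gene IDs. The members, gene lists and alternatives were chosen with earlier results of these data known.

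Genes kept by filterByExpr were scaled with TMM and tested with edgeR 4.0.16 (R 4.3.3, quasi-likelihood, two-sided, group as the only term), with Benjamini-Hochberg adjustment over all genes. The SE is the log2 fold change divided by the square root of F. All members are described. Of other lists, the 2 genes highest in CPM and the 2 of largest change are named, and further ones were chosen after their values were seen. limma 3.58.1 and DESeq2 1.42.0 were alternatives. The procedure was tested on simulated counts. Principal components used log2 CPM with 0.5 added to each count. Nothing in the labels ties replicates to separate cultures. The p-values then reflect only how far these samples differ, and that variation could be technical. Floors cover counting error only, since reads are not independent molecules. One hepatocyte marker and the sum that holds it are not reported here.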

Additional observations from a re-analysis of the deposited data

How the results depend on the processing

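Over 17 alternatives for each of 9 members, IL6, CXCL8, CXCL2, CCL2, IL1A and IL1B stayed above 0 and LIF below 0, at -0.0096 without both end libraries of the first component. CXCL3 turned to -0.082 without siNC replicate 3 and ran from -0.082 to 0.54 with 1 library left out. IL11 ran from -0.28 to 0.24 in the same fits, and was 0.24 without siNC replicate 1, 0.047 without siXBP1 replicate 2, 0.087 with the first component as a covariate and 0.31 with its end libraries left out. The number of genes called was 1 in the planned fit, 0 with upper-quartile factors, 0 to 1 with 1 library left out, 16 with DESeq2, 172 with the covariate (102 higher, 70 lower) and 702 without both end libraries (209 higher, 493 lower). The cause was not tested. Members called numbered 2 with DESeq2, against 0 in the planned fit (IL6 and CXCL8, adjusted p = 0.000143 and 0.000739), 3 with the covariate and 3 without both end libraries (IL6, CXCL8 and CXCL2). The last fit compares 2 libraries with 2, and its share of genes called higher is 1.45%. With 1 library left out, 6 to 8 members had higher estimates and 0 were called. Adjusted p over the alternatives ran from 1.1e-08 to 1.00 for IL6, 6.27e-06 to 1.00 for CXCL8 and 0.0228 to 1.00 for CXCL2.

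With the replicate number as a block, 1 gene and 0 members were called and 7 members had higher estimates. The block moved no count of calls. Deviations of same-numbered libraries correlated at 0.60, -0.36 and 0.43 over 11528 genes, and siXBP1 replicates 2 and 3 correlated best with another number. With 3 libraries per group and a large first component, these values cannot show whether the numbers pair the samples. The lowest counts were in CXCL3 (66) and IL11 (124), which also had the widest replicate spread (26.8% and 23.3%), and the part of depth in it was not tested.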
